A study of Rattus norvegicus with 64 samples.

Results

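Tissue plasminogen activator (Plat), urokinase (Plau), the urokinase receptor (Plaur), protease nexin-1 (Serpine2), tissue factor (F3), thrombomodulin (Thbd), the A chain of factor XIII (F13a1) and the tissue factor pathway inhibitors Tfpi and Tfpi2 were followed in rat bladders after augmentation. They are plasminogen activators, their receptor and inhibitors, and clotting genes that tissue cells make, and they were chosen by name, as every gene probe whose RefSeq accession maps to 1 of the 9 symbols. All 9 genes were found, among 15709 named genes, and they were read by 12 of 30367 gene probes. Plaur, Thbd and Tfpi had 2 probes each. A gene is represented below by its brightest probe over all arrays, and the other probe is given for some of the comparisons.

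Clotting and clot removal run together in a healing wound. Tissue factor exposed by injury binds factor VII and starts the cascade that ends in thrombin, thrombin cuts fibrinogen to fibrin, and factor XIII crosslinks the fibrin strands. Thrombomodulin on the vessel wall turns thrombin toward the activation of protein C, and Tfpi blocks the complex of tissue factor and factor VII. Plasminogen activators convert plasminogen to plasmin, which dissolves fibrin and helps cells to move through matrix, and serpins such as Serpine2 hold the activators in check.

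RNA came from the reconstructed bladder wall of male Wistar rats that had undergone hemicystectomy and augmentation with about 1 cm2 of graft. The graft was bladder acellular matrix (BAM), without cells or seeded with 10000000 adipose-derived stromal cells (ASCs) of the third passage. The cells were grown from retroperitoneal fat of 10-week-old syngeneic male Wistar rats, so that donor and host cells cannot be told apart by sequence. Each graft was examined at 7, 30, 90 and 180 days, which gave 8 groups of 8 arrays, with 1 bladder on each array. All animals carried a graft, and no array of an unoperated bladder was analysed here. The age of the operated rats is not given in the sources used here.

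Signals are given as log2 of the processed spot intensity after subtraction of the array's 75th percentile over gene spots, so that 0 is the level of the 75th percentile. Values of different probes are not comparable with each other, and only a probe's differences between groups are described. Differentially expressed genes (DEGs) passed 2 thresholds, a fold change above 1.5 and, after Benjamini-Hochberg adjustment over all probes, a p below 0.01. Each group lay on a slide of its own, and the scan date changed between the arrays of 30 and 90 days. Group and slide, and the step from 30 to 90 days and the scan date, therefore cannot be told apart. The share of gene spots well above background was 73.3 to 95.6% at 7 and 30 days and 35.5 to 64.6% at 90 and 180 days. Replicates 1 and 2 of BAM seeded with ASCs at 30 days had 95.6 and 86.2%, against 74.1 to 77.2% on the rest of their group. The median local background of an array was 42.0 to 52.0 intensity units at 7 and 30 days, 99.0 to 120.0 with ASCs and 321.0 to 365.5 with BAM only at 90 days, and 119.0 to 171.0 at 180 days. The median difference of all probes between 90 and 30 days was 0.30 in BAM only and 0.11 with ASCs, against 0.01 and 0.03 after quantile normalization. The label of bladder wall held: smooth muscle markers were above background on every array (8 of 8 genes on the array in all groups), and all 7 urothelial markers found were well above background on some arrays of every group. The array of BAM seeded with ASCs at 90 days, replicate 3, stood apart, with a summed macrophage marker signal of 3.74 times the 75th percentile against 12.2 to 24.7 on the other 7 arrays of its group. No probe of the 9 genes was saturated on any array, but many marker probes were, and a saturated signal is only a lower limit. Summed marker signals are therefore given over the markers saturated on no array, 7 of 10 for macrophages, 5 of 7 for neutrophils, 9 of 9 for endothelium, 5 of 9 for fibroblasts and 2 of 7 for urothelium, a choice made after the data were seen.

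**Figure D1:**
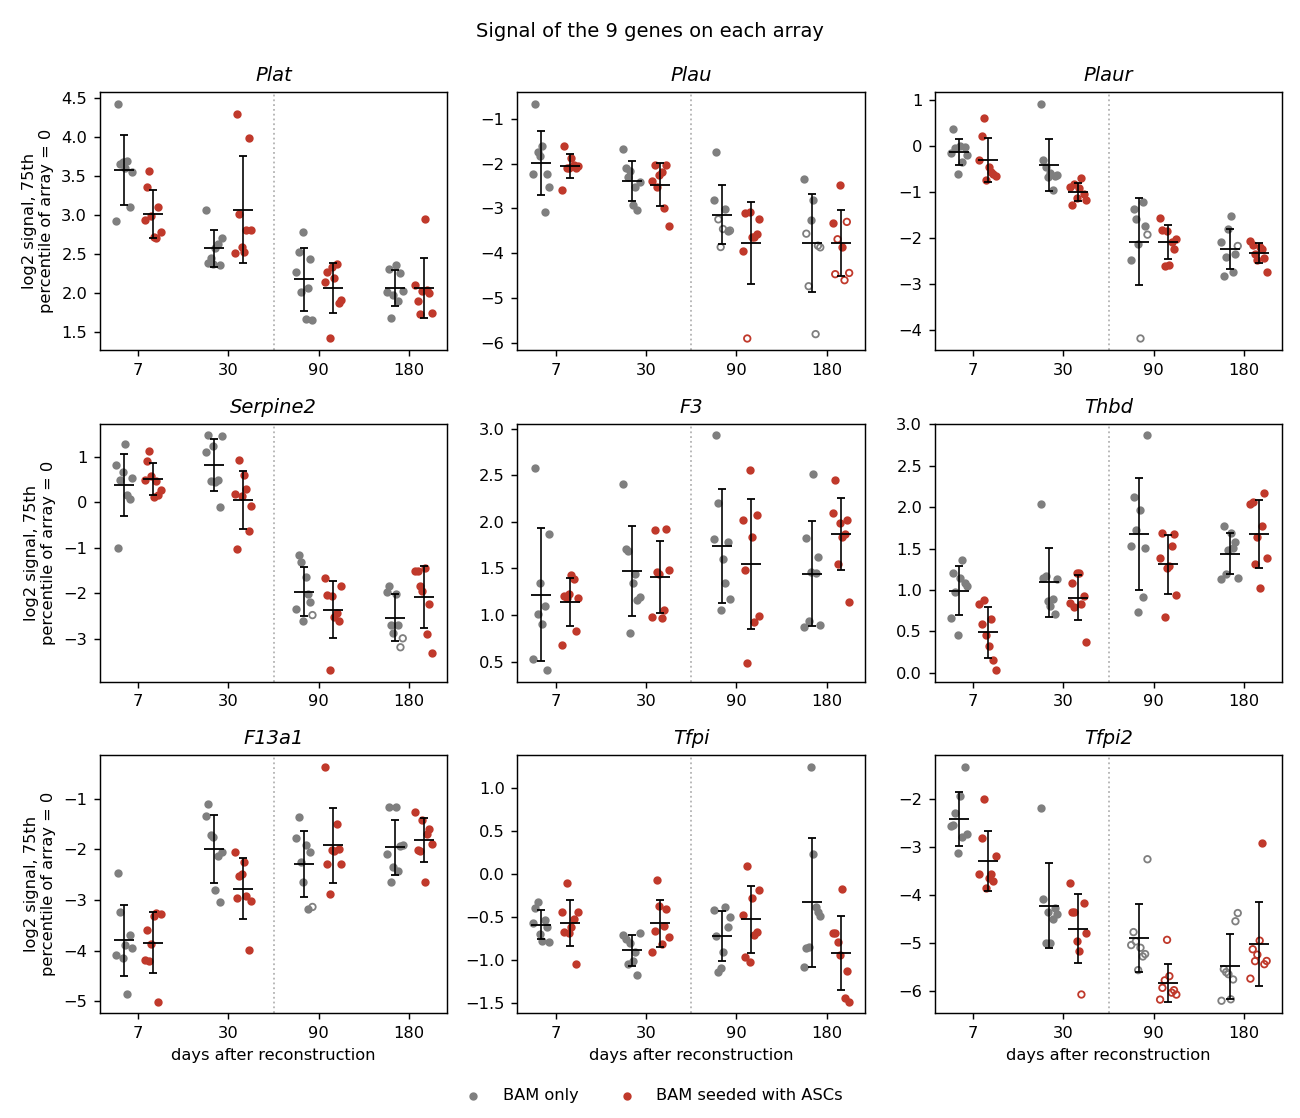
Log2 signal of the 9 genes on each of 64 arrays, with the array's 75th percentile at 0, by days after reconstruction and graft (8 arrays per group). Filled points were well above background and open points were not, black bars are the mean and SD, and the dotted line marks the change of scan date. Serpine2 and Plaur lay lower at 90 and 180 days than at 30 days in both grafts, F13a1 lay lowest at 7 days, and Tfpi2 was above background on 1 of 32 arrays at 90 and 180 days.

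The question of the design is how bladders reconstructed using BAM seeded with ASCs differed from those reconstructed using BAM only. At none of the 4 days was any of the 9 genes a DEG between the grafts, while 7.75% of all named genes were DEGs at 7 days, 1.97% at 30, 10.2% at 90 and 1.05% at 180 days. With a list of 9 genes such shares amount to less than 1 gene at each day, so the count of 0 stood near the background. At an unadjusted p under 0.05 limma gave 3, 4, 1 and 1 genes at 7, 30, 90 and 180 days. The share of all named genes at that level is not given, so such counts, here and below, are not read as a result. The 2-way analysis of variance without moderation gave 0 DEGs at each day. The ranges of both grafts overlapped for all 9 genes at all 4 days, which is not read as particular to them, since the share of all named genes is not given. The median difference of the 9 genes was -0.08, -0.19, -0.19 and 0.15 at the 4 days, beside -0.13, 0.08, -0.16 and 0.03 for all named genes. In bulk tissue a lower signal cannot be told apart as fewer cells of a type or less RNA per cell.

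**Figure D2:**
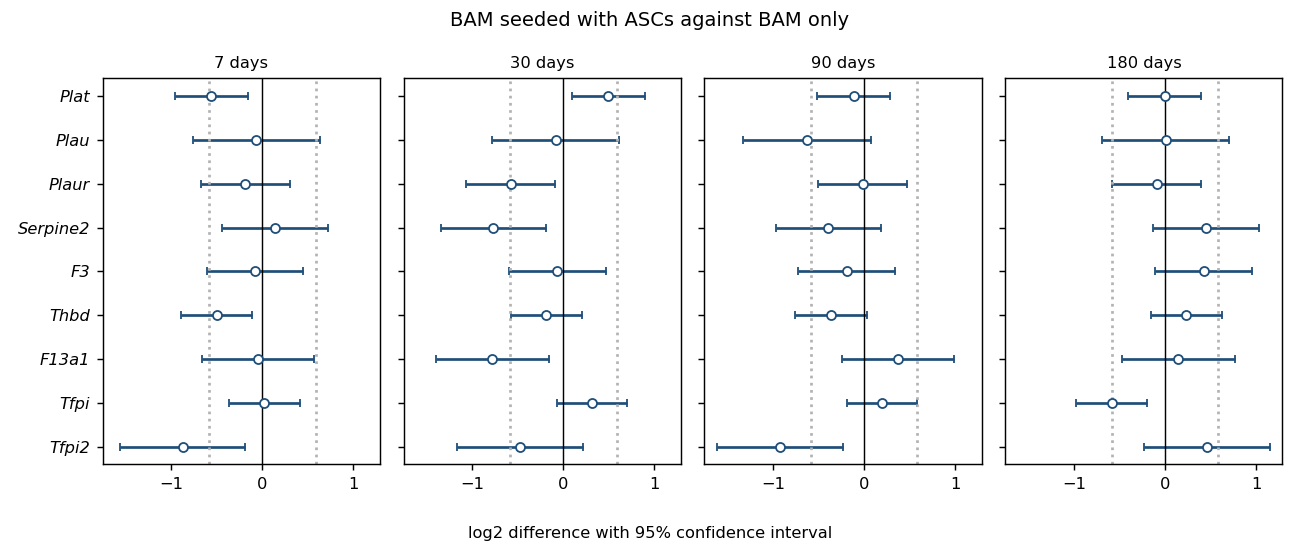
Log2 difference of BAM seeded with ASCs minus BAM only for the 9 genes at each day, with the 95% confidence interval of the fit over 64 arrays. Open points were not DEGs, which holds for all of them, and the dotted lines mark a fold change of 1.5. Of the values at 7 days that of Tfpi2 lay farthest from 0, and its value at 90 days came from a probe above background on 0 of 16 arrays.

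Plat, the tissue-type activator that works best on the surface of fibrin, was the member with the smallest adjusted p at 7 days. Its signal with ASCs ranged from 2.71 to 3.56 with a median of 2.96, and with BAM only from 2.92 to 4.42 with a median of 3.63. Of the 8 seeded bladders 3 lay below every BAM-only bladder, and the rest overlapped. The difference was -0.56 (SE 0.20, 95% confidence interval -0.96 to -0.16), with an adjusted p of 0.0424. At 30 days the mean difference had the opposite sign, with a median of 2.81 (2.52 to 4.29) with ASCs and 2.52 (2.37 to 3.07) with BAM only. That difference was 0.50 (SE 0.20, adjusted p = 0.106), and 2 seeded bladders lay above all BAM-only bladders. Without the higher of them, replicate 2, with 86.2% of gene spots well above background, the difference was 0.32 (adjusted p = 0.336). The difference between the grafts moved by 1.06 (SE 0.28) from 7 to 30 days, with an adjusted p of 0.0198 for the contrast of contrasts, and by 0.88 (adjusted p = 0.0464) without that array. At 90 and 180 days it was -0.11 and -0.01, with confidence intervals of -0.51 to 0.29 and -0.41 to 0.39.

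At 7 days Thbd, the thrombin receptor of the vessel wall, was 0.50 lower with ASCs (SE 0.20, adjusted p = 0.0669), with ranges of 0.04 to 0.88 with ASCs and 0.45 to 1.36 with BAM only. Endothelial markers lay in the same direction on these arrays: 2 of 9 (Kdr and Vwf) were DEGs lower with ASCs, and the summed marker signal was 13.2 to 19.4 with ASCs and 19.1 to 31.0 with BAM only. All 9 were above background on every array of both groups. Their part in the values of Thbd and Plat was not tested. Neutrophil markers had summed signals of 0.528 to 1.61 with ASCs and 1.07 to 4.88 with BAM only at 7 days, and 2 of the 7 found were DEGs, lower with ASCs. Of the 7 found, 6 were above background on all 8 seeded arrays of that day and Elane on 0. Urothelial markers lay in the other direction, with 5 of the 7 found as DEGs higher with ASCs and a median difference of 2.05. All 5 were saturated on some arrays of the study, and the other 2, neither a DEG, had summed signals of 1.31 to 6.06 with ASCs and 0.355 to 2.33 with BAM only. Over all 7 the sums, with saturated probes, were 39.4 to 141.9 and 2.11 to 101.2. The part of neutrophils and urothelium in the values of the 9 genes at 7 days was not tested.

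Tfpi2, a matrix-bound inhibitor of plasmin and of other trypsin-like proteases, had a median of -3.56 (-3.85 to -1.997) with ASCs and -2.55 (-3.13 to -1.33) with BAM only at 7 days. Of the seeded bladders 6 of 8 lay below every BAM-only bladder, and the difference was -0.87 (SE 0.34, adjusted p = 0.0692). At 90 days the difference was -0.93 (SE 0.34, adjusted p = 0.0328), but the probe was not well above background on any of the 16 arrays. After normexp background correction the value at 90 days was 0.20, so no direction is read from it.

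The inhibitor Serpine2, the activator receptor Plaur and the crosslinking F13a1 had negative differences at 30 days that missed the threshold. Serpine2 ranged from -1.03 to 0.92 with ASCs and from -0.10 to 1.46 with BAM only, a difference of -0.77 (SE 0.29, adjusted p = 0.0826). For F13a1 the ranges were -3.98 to -2.05 and -3.04 to -1.11, a difference of -0.78 (SE 0.31, adjusted p = 0.1001). Plaur ranged from -1.28 to -0.70 with ASCs and from -0.96 to 0.92 with BAM only, a difference of -0.58 (SE 0.24, adjusted p = 0.123). The highest value of Plaur came from BAM replicate 1, and without that array the difference was -0.39 (adjusted p = 0.318). Macrophage markers, of which 10 of 10 were above background on all 16 arrays of this day, had summed signals of 19.0 to 49.5 with ASCs and 38.3 to 65.5 with BAM only over the 7 never saturated. With the 3 saturated markers the ranges, 98.9 to 159.0 and 167.7 to 196.4, did not overlap. None of the 10 was a DEG, and their part in the values of Serpine2, Plaur and F13a1 was not tested.

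For the remaining genes the intervals bounded the size of a difference. F3, which starts the clotting cascade, differed by -0.08, -0.06, -0.19 and 0.42 at 7, 30, 90 and 180 days, and the widest bounds over the 4 days were -0.72 and 0.95. Plau, the urokinase made by migrating cells, differed by -0.07, -0.08, -0.63 and 0.01, with the widest interval from -1.33 to 0.07 at 90 days. Without replicate 3 of the seeded bladders, the lowest array of that day, the value at 90 days was -0.32 (adjusted p = 0.441). Tfpi, the main inhibitor of tissue factor, differed by 0.02, 0.31 and 0.19 at 7, 30 and 90 days and by -0.59 at 180 days (SE 0.19, adjusted p = 0.0623). Its range at 180 days was -1.48 to -0.18 with ASCs and -1.08 to 1.24 with BAM only, so that the groups overlapped on 5 seeded arrays. The highest value of BAM only came from replicate 4 (1.24, next 0.22), and without that array the difference was -0.36 (adjusted p = 0.280). The second Tfpi probe gave -0.59 on that day, with 0 of 16 arrays well above background. At 7 days the second probe was well above background on all 8 arrays of each graft. It gave -0.46 there (SE 0.28, adjusted p = 0.291), against 0.02 for the brightest probe. By the second probe 7 of 8 seeded arrays of 7 days lay below every BAM-only array.

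Whether the graft difference itself changed over the 4 days was tested by an F test with 3 degrees of freedom for each probe. None of the 9 genes reached an adjusted p of 0.01, a level reached by 16.4% of named genes, and 4 had an unadjusted p under 0.05. Plat (adjusted p = 0.0206) and Tfpi (adjusted p = 0.0275) lay below 0.05, as did 38.3% of all named genes.

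Between neighboring days in each graft 12 of 54 values were those of DEGs, beside 0 of 36 between grafts. Of all named genes 2.67 to 41.3% were DEGs at a step between days and 1.05 to 10.2% between grafts. The background thus differed in the same direction, and no contrast is read from the pooled counts. Serpine2 and Plaur fell between 30 and 90 days in both grafts, F13a1 rose and Tfpi2 fell between 7 and 30 days in both, and F3, Thbd and Tfpi by their brightest probes were DEGs at no step. From 7 to 30 days 3 of 9 genes were DEGs in BAM only (background 10.1%) and 2 of 9 with ASCs (6.82%). From 30 to 90 days the count was 2 of 9 in BAM only (41.3%, or 10.7% counting lower genes alone) and 5 of 9 with ASCs (28.6%, or 11.2% lower), and all of these were lower. With ASCs the count at that step was 4 after normexp and 4 after quantile normalization (3 lower and F13a1 higher), where Plau and Tfpi2 were no longer DEGs, and 4 without dim probes, where Tfpi2 had no value. From 90 to 180 days it was 0 of 9 in BAM only (7.83%) and 0 of 9 with ASCs (2.67%), where limma gave 1 and 2 genes at an unadjusted p under 0.05. Since consecutive steps share a group, the counts of different steps are not independent of each other.

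**Figure D3:**
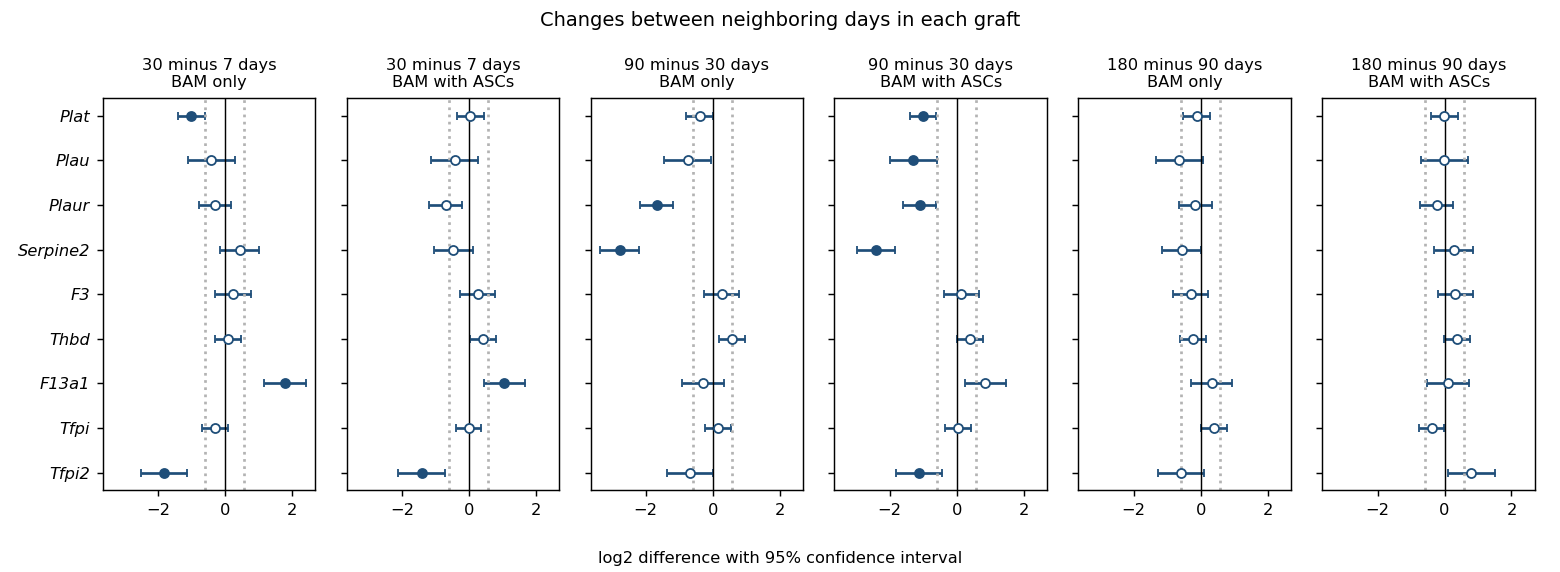
Log2 difference between neighboring days for the 9 genes in each graft, with the 95% confidence interval of the fit over 64 arrays. Filled points were DEGs and open points were not, and the dotted lines mark a fold change of 1.5. Serpine2 and Plaur were filled on the negative side at 90 minus 30 days in both grafts, and no point was filled at 180 minus 90 days.

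The promoter windows of the 4 genes that were DEGs at the same step in both grafts are shown, because these are the members whose change was called in each graft alike. The table of RefSeq promoters (build GRCr8, 250 bases before and 50 after the start) held 6 of the 9 genes, Tfpi with 2 starts. Capitals mark AP-1 motifs (TGANTCA, searched on both strands) and GC boxes (GGGCGG, with CCGCCC as its other strand). The windows are Plaur on the plus strand at chr1:89181113-89181412, Serpine2 on the minus strand at chr9:88637153-88637452, F13a1 on the plus strand at chr17:28020947-28021246 and Tfpi2 on the minus strand at chr4:32941227-32941526.
Plaur: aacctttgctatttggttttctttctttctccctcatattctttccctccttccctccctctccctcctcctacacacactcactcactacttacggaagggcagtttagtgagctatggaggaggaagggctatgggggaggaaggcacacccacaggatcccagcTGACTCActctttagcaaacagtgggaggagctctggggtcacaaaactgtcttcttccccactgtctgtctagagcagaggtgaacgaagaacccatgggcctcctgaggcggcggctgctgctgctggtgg
Serpine2: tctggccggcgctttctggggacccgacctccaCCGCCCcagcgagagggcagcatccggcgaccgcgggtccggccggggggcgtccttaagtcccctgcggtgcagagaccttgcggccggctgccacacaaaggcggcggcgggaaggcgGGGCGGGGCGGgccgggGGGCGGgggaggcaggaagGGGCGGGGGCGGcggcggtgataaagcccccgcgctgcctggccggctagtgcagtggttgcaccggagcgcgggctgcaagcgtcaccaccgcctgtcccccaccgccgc
F13a1: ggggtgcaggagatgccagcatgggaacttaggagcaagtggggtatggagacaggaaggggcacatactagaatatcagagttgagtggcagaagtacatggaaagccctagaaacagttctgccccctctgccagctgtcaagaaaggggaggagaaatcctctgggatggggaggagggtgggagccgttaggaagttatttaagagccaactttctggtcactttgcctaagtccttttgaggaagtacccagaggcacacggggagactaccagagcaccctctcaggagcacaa
Tfpi2: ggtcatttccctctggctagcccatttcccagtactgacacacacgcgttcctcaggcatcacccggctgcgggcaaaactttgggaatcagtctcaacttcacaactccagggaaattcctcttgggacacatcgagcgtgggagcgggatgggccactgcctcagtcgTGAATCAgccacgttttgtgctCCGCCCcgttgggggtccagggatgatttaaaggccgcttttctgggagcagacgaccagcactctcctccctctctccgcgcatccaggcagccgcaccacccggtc

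An AP-1 motif, the site named for Fos and Jun dimers, began 83 bases before the start of Plaur and 80 bases before that of Tfpi2. The Serpine2 window held 6 GC boxes, at 217, 97, 92, 80, 61 and 55 bases before the start. The matches at 97 and 92 share a base, and those at 61 and 55 adjoin. Tfpi2 held 1 GC box, 58 bases before the start, and the F13a1 window held neither motif. Of all 33365 windows of the same length 7.34% held the AP-1 motif and 33.1% the GC box. The 2 genes with an AP-1 motif here were Plaur, which fell from 30 to 90 days, and Tfpi2, which fell from 7 to 30 days. The window of Plau, a DEG lower from 30 to 90 days with ASCs alone, is not shown and held 3 GC boxes and 0 AP-1 motifs. Neither of the 2 Tfpi windows held an AP-1 motif, and 1 of them held 1 GC box. A match of letters is a description of the window, and binding was not measured.

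Serpine2, which inhibits thrombin, urokinase and tissue plasminogen activator at the cell surface, had the largest fall of the 9 genes between neighboring days. With BAM only the signal at 30 days ranged from -0.10 to 1.46 with a median of 0.79, and at 90 days from -2.60 to -1.15 with a median of -2.10. With ASCs it ranged from -1.03 to 0.92 at 30 days (median 0.16) and from -3.68 to -1.67 at 90 days (median -2.25). In both grafts every array of 90 days lay below every array of 30 days. The fall was -2.78 on the log2 scale (SE 0.29, 6.88-fold, adjusted p = 3.96e-12) in BAM only and -2.41 (SE 0.29, 5.30-fold, adjusted p = 9.75e-10) with ASCs. Without replicate 3 of the seeded bladders at 90 days, which had the lowest value, the latter was -2.22 (adjusted p = 8.24e-09). From 90 to 180 days the difference was -0.57 in BAM only (95% confidence interval -1.15 to 0.0093, adjusted p = 0.154), where 5 of 8 arrays of 180 days lay below every array of 90 days, and 0.27 with ASCs (adjusted p = 0.526). In the order of group means the 4 groups of 7 and 30 days came before the 4 groups of 90 and 180 days, and no tested pair within either set of 4 was a DEG.

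Plaur, which holds urokinase at the cell surface of macrophages, neutrophils and migrating epithelium, had the same order in time. Its BAM-only signal ranged from -0.96 to 0.92 at 30 days with a median of -0.61, and from -4.19 to -1.22 at 90 days with a median of -1.84. With ASCs the ranges were -1.28 to -0.70 and -2.61 to -1.56. Again no array of 90 days reached the lowest array of 30 days in either graft. The fall was -1.67 (SE 0.24, 3.18-fold, adjusted p = 4.17e-08) in BAM only and -1.10 (SE 0.24, 2.15-fold, adjusted p = 0.000179) with ASCs. The second Plaur probe fell too, by -1.22 (adjusted p = 5.30e-07) and -0.67 (adjusted p = 0.00462). Leaving out the lowest BAM-only array of 90 days, replicate 5, gave -1.37 (adjusted p = 6.82e-08). Between 7 and 30 days the values were -0.29 in BAM only (adjusted p = 0.478) and -0.69 with ASCs (adjusted p = 0.0309), and neither was a DEG.

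Plau, the ligand of that receptor, fell between 30 and 90 days with ASCs by -1.30 (SE 0.35, 2.45-fold, adjusted p = 0.00174). The seeded bladders ranged from -3.38 to -2.03 at 30 days and from -5.90 to -3.08 at 90 days, where 5 of 8 lay below all those of 30 days. In BAM only the ranges were -3.02 to -1.68 and -3.86 to -1.73, a difference of -0.75 with an adjusted p of 0.0568. The seeded fall rested in part on replicate 3 of 90 days, at -5.90, and without it the value was -0.99 (adjusted p = 0.0113). After normexp background correction it was -0.58 (adjusted p = 0.0166) and after quantile normalization -1.17 (adjusted p = 0.0396). The probe was well above background on 7 of 8 seeded and 4 of 8 BAM-only arrays at 90 days, and on 3 of 8 of each graft at 180 days.

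Plat fell at different steps in the 2 grafts, and each fall was about 2-fold. In BAM only the median went from 3.63 (2.92 to 4.42) at 7 days to 2.52 (2.37 to 3.07) at 30 days, a difference of -1.01 (SE 0.20, 2.01-fold, adjusted p = 0.000115), with 7 of 8 arrays below every array of 7 days. With ASCs the difference over that step was 0.05 (95% confidence interval -0.35 to 0.45). The seeded bladders fell from 30 to 90 days instead, from 2.81 (2.52 to 4.29) to 2.17 (1.42 to 2.37), by -1.004 (SE 0.20, 2.01-fold, adjusted p = 3.72e-05), with no overlap. In BAM only that step gave -0.39 (adjusted p = 0.0804). Over 7 to 30 days the difference between grafts in this change was the 1.06 given above, and over 30 to 90 days it was -0.61 (SE 0.28, adjusted p = 0.0853). At 180 days both grafts lay at the same level, with medians of 2.01 with ASCs and 2.02 with BAM only.

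F13a1, the crosslinking subunit, which tissue macrophages and platelets carry, rose from 7 to 30 days. In BAM only it went from a median of -3.92 (-4.85 to -2.47) to -1.91 (-3.04 to -1.11), a rise of 1.79 (SE 0.31, 3.47-fold, adjusted p = 1.03e-05), and 6 of 8 arrays lay above every array of 7 days. With ASCs the median went from -3.73 (-5.001 to -3.26) to -2.72 (-3.98 to -2.05), a rise of 1.06 (SE 0.31, 2.09-fold, adjusted p = 0.00878), with 7 of 8 arrays above all those of 7 days. This second call was close to the threshold and was lost after normexp (0.66, adjusted p = 0.0379), quantile normalization (0.81, adjusted p = 0.0745) and 3 other settings. It was also lost without any 1 of replicates 1, 2, 3, 4 and 7 of 7 days or of replicates 1 to 6 of 30 days, where the value was 0.90 at the lowest and the adjusted p 0.0289 at the highest. From 30 to 90 days the value was 0.85 in the seeded bladders (SE 0.31, adjusted p = 0.0183), which was no DEG, and became one after normexp (0.81, adjusted p = 0.003604) and quantile normalization (1.02, adjusted p = 0.00875). In BAM only it was -0.29 (adjusted p = 0.416), and the difference of these changes was 1.15 (SE 0.44, adjusted p = 0.0381). When each of the 32 arrays behind it was left out in turn that difference ran from 0.93 to 1.30, with an adjusted p of up to 0.0835, and it lost an adjusted p under 0.05 in 11 cases, BAM replicate 1 of 30 days among them (1.05, adjusted p = 0.0628). At 180 days the medians were -1.79 with ASCs and -2.01 with BAM only.

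Tfpi2 fell from 7 to 30 days in both grafts. In BAM only the signal went from a median of -2.55 (-3.13 to -1.33) to -4.37 (-5.004 to -2.19), by -1.81 (SE 0.34, 3.51-fold, adjusted p = 5.79e-05), and with ASCs from -3.56 (-3.85 to -1.997) to -4.57 (-6.07 to -3.75), by -1.41 (SE 0.34, 2.66-fold, adjusted p = 0.00184). In each graft 7 of 8 arrays of 30 days lay below every array of 7 days. The 8th BAM-only array was replicate 1, at -2.19, and without it the fall was -2.10 (adjusted p = 1.98e-06). At 90 days no array was well above background, so no size is read from the step from 30 to 90 days. With ASCs that step was called lower in the main fit (adjusted p = 0.00541), with 7 of 8 arrays of 30 days above background. That call was lost after normexp (-0.08, adjusted p = 0.783), after quantile normalization (-0.64, adjusted p = 0.135), and without any 1 of replicates 1, 2, 3 and 7 of 30 days or replicates 1 and 8 of 90 days (adjusted p up to 0.0144).

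Thbd had positive differences at the middle step without passing both thresholds. From 30 to 90 days it differed by 0.58 in BAM only (SE 0.20, 1.49-fold, adjusted p = 0.00903), which passed the p threshold and missed the fold threshold, and by 0.40 with ASCs (adjusted p = 0.0845). The BAM-only ranges were 0.71 to 2.03 at 30 days and 0.74 to 2.86 at 90 days. Without BAM replicate 1 of 30 days, the highest array, the difference was 0.71 (adjusted p = 0.00125), past both thresholds, as it was when replicate 1, 4, 6 or 7 of 90 days was left out. The second Thbd probe was well above background on 10 of 32 arrays at 90 and 180 days and was not used for these steps. For F3 the differences between neighboring days ran from -0.29 to 0.32, and its group means spanned 1.66-fold over the 8 groups, 1.36 times the pooled SD of a group. The Tfpi means spanned 1.503-fold. From 90 to 180 days Tfpi moved by 0.39 in BAM only (adjusted p = 0.137) and by -0.39 with ASCs (adjusted p = 0.189), and the difference of these changes was -0.78 (SE 0.27, adjusted p = 0.0326). Without BAM replicate 4 of 180 days the BAM-only change was 0.17 (adjusted p = 0.478) and the difference of changes -0.56 (adjusted p = 0.0751). The second Tfpi probe passed both thresholds at that step with ASCs (adjusted p = 0.00543), but it was above background on 3 of 8 arrays at 90 days and 0 of 8 at 180 days, so no size is read from it.

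Markers of other cells moved over the same steps. From 7 to 30 days all 7 neutrophil markers found were DEGs lower in BAM only and 4 of 7 with ASCs. Their summed signal went from 1.07 to 4.88 down to 0.222 to 0.612 in BAM only and from 0.528 to 1.61 to 0.156 to 0.978 with ASCs. At 30 days 5 of the 7 found were above background on all 8 arrays in each graft. Elane was above background on 0 arrays at 30 days in both grafts, as it already was at 7 days with ASCs, and Mmp8 on 0 at 30 days in BAM only. Endothelial markers fell in BAM only over that step, 7 of 9 as DEGs, with summed signals of 19.1 to 31.0 at 7 days and 9.03 to 13.5 at 30 days, and 2 of 9 fell with ASCs. Fibroblast markers fell too, 5 of 9 as DEGs in BAM only, none of the 5 saturated (10.1 to 17.5 at 7 and 5.67 to 8.91 at 30 days), and 1 of 9 with ASCs. Urothelial markers rose, 4 of 7 in BAM only and 1 of 7 with ASCs, where the 4 were saturated on some arrays of the study. The part of these cells in the falls of Plat and Tfpi2 and the rise of F13a1 was not tested.

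From 30 to 90 days 8 of 10 macrophage markers fell in BAM only and 3 of 10 with ASCs, or 5 and 2 of the 7 never saturated. Their summed signal went from 38.3 to 65.5 down to 6.62 to 39.4 in BAM only, and from 19.0 to 49.5 to 3.74 to 24.7 with ASCs, and no marker was above background on 0 arrays. Fibroblast markers fell in BAM only, 4 of 9 as DEGs, but 1 of the 5 never saturated, whose sums were 5.67 to 8.91 at 30 and 4.45 to 9.04 at 90 days. With ASCs 1 of 9 fell and 1 rose. Of the smooth muscle markers 5 of 8 were DEGs higher in BAM only and 7 of 8 with ASCs, and 7 of the 8 were saturated on some arrays. Of the 7 neutrophil markers found, 2 were DEGs higher and 0 lower in BAM only (Elane and Mmp8), and 1 higher (Elane) and 4 lower with ASCs. Elane and Mmp8 were above background on 0 arrays at 90 days in both grafts. The part of these cells in the falls of Serpine2, Plaur, Plau and Plat was not tested, and the scan date changed at that step. Platelet markers had summed signals of 0.622 to 26.7 over all arrays of 90 and 180 days, saturated values included.

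**Figure D4:**
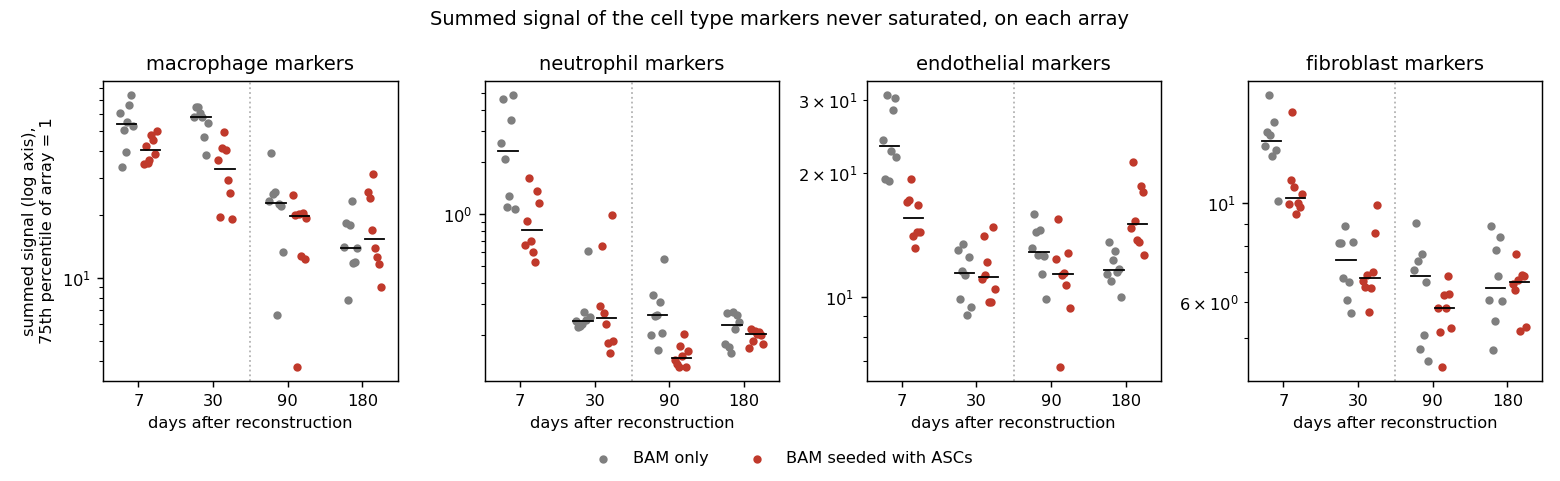
Summed signal of the never saturated markers of 4 lists on each array, in multiples of the array's 75th percentile on a log axis, by days after reconstruction and graft (8 arrays per group). Bars are group medians and the dotted line marks the change of scan date. Neutrophil and fibroblast markers were highest at 7 days, macrophage markers with BAM only were lower at 90 than at 30 days, and the seeded array at 3.74 in the macrophage panel is replicate 3 of 90 days.

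Of 41 further genes of the plasminogen system, the clotting factors, the anticoagulants and the thrombin receptors, 37 were on the array. Between grafts 3 of 37 were DEGs at 7 days (background 7.75%), 0 at 30 (1.97%), 5 at 90 (10.2%) and 0 at 180 days (1.05%), so these counts stood near the background. The count at 90 days was 2 after normexp, 1 after quantile normalization, 2 without dim probes, 3 with the series matrix, 1 with the compared arrays alone and 2 to 6 when single arrays were left out. At 7 days Plg, the plasmin precursor, was 0.74 lower with ASCs (mean -2.02 against -1.28, adjusted p = 7.14e-05), Vwf, which tethers platelets, 1.00 lower (0.36 against 1.36, adjusted p = 1.23e-05) and F12, the contact factor, 1.01 lower (-5.39 against -4.39, adjusted p = 0.00556). At 90 days Plg was 0.70 lower (-1.52 against -0.81, adjusted p = 7.38e-05), and Anxa2, a plasminogen-binding annexin, had a difference of 0.67 (5.42 with ASCs against 4.75, adjusted p = 1.49e-06). The median difference of the 37 genes was -0.25 at 7 days and -0.75 at 90 days, beside -0.13 and -0.16 for all named genes. At 90 days the value of Plg thus lay near the median of the list. With the compared arrays alone the 1 DEG at 90 days was higher with ASCs, so Plg was no DEG there. The other 3 genes lower with ASCs at 90 days, F2rl3, Serpina10 and Thbs1, were well above background on at most 1 of 8 arrays in either group. With BAM only the local background at 90 days was higher than in the seeded group, as given above. The Anxa2 probe was saturated on 7 of 8 BAM-only arrays and 1 of 8 seeded arrays at 90 days, so its BAM-only mean is a lower limit and no direction is read from it. Probes saturated on at least 7 of 8 arrays in both groups of that day also read lower with BAM only: in multiples of the 75th percentile the median was 23.7 against 54.8 for Lyz2, 25.1 against 58.6 for Col1a2, 27.9 against 62.3 for Actg2 and 22.4 against 57.4 for Upk3a, genes named after their values were seen.

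Between days many of the DEGs among these genes were dim. From 7 to 30 days 7 of 37 were DEGs in BAM only (1 higher, 6 lower, background 10.1%) and 1 of 37 with ASCs (6.82%). From 30 to 90 days 20 of 37 were DEGs in BAM only (13 higher, 7 lower, background 41.3%) and 13 of 37 with ASCs (7 higher, 6 lower, background 28.6%). Of the 13 that were higher in BAM only, 12 were well above background on under 8 of the 16 arrays compared and 11 on 0 arrays at 90 days, and of the 7 with ASCs all 7 were and 6 on 0. They included Fga, Fgb and Fgg, the fibrinogen chains that the liver makes. After normexp background correction 7 genes were DEGs in BAM only, 1 of them higher, and 2 with ASCs, both lower. Values near background are bounds at most, and no rise of these genes is read from the main values.

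**Figure D5:**
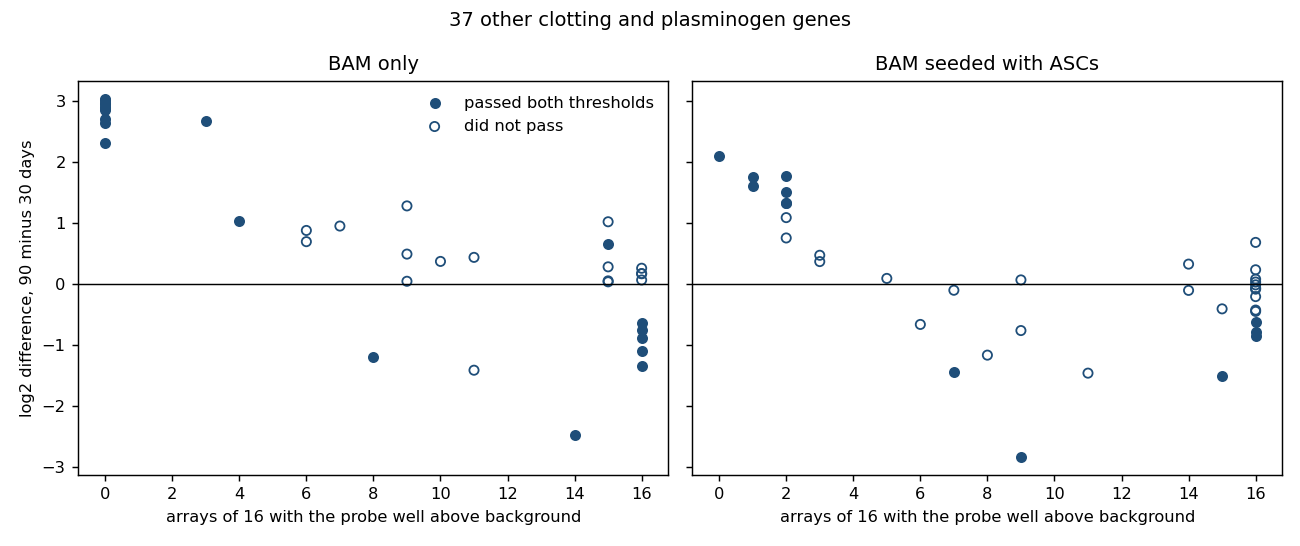
Log2 difference of 90 minus 30 days for 37 other clotting and plasminogen genes against the number of the 16 arrays compared on which the probe was well above background, in BAM only and in BAM seeded with ASCs. Filled points were DEGs and open points were not. Differences above 2 on the log2 scale occurred at 3 arrays or fewer, and the genes measured on 16 arrays that were DEGs were all lower, Anxa2 in BAM only among them, whose probe was saturated on 7 of 8 arrays of each day.

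Among 5227 genes above background on all 64 arrays, the profiles nearest to those of the 4 members measured on every array were sought by the root mean square difference of the 8 group means after centering. For Plat these were Mlec (0.11) and Bmp1 (0.13), on a scale where the Plat means themselves varied by 0.55. For Thbd they were Hyal3 (0.05) and Serpinb7 (0.08), against 0.38 for Thbd itself. F3 was nearest to Prrt1 (0.09) and Gpr3 (0.09), and Tfpi to Chchd5 (0.10) and Tmem126b (0.12), but F3 and Tfpi varied by only 0.23 and 0.18 over the groups. These are likenesses over 8 means, given with no test.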

How the data were processed

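Total RNA of reconstructed bladder walls was hybridised to 64 1-color rat arrays. The authors deposited Agilent Feature Extraction output and a series matrix of the same arrays, and the processed signal used here is an intensity on a linear scale, background-corrected by the scanner software. The deposited intensity was taken to log2, and the array's 75th percentile over all gene spots, without control spots, was subtracted. Spots flagged as outliers were then left out, and replicate spots were averaged by probe. A probe counted as well above background on an array if at least 0.5 of its spots did. Names came from the RefSeq accession through a table of build GRCr8 (18750 of 22372 matched). In the series matrix 3 columns were off scale and 1 was partly empty, so it served as an alternative.

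A model of 8 group means over all 64 arrays was fitted in R 4.3.3 (limma 3.58.1), with Benjamini-Hochberg adjustment over 30367 probes, and 10 comparisons and the graft by day interaction were tested. All adjusted p values are limma's. Python 3.11.15, pandas 2.3.3 and matplotlib 3.10.9 were used for the rest, and the fit was tested on simulated data. The labels give the graft, day and replicate of each array. They state 10 rats per group, of which 8 were analysed here, and 1 bladder per array, so p values measure the spread between rats of 1 slide. The number of arrays limits the precision. No array of the series was left out. Genes were named by a rule: all 9 members, other pathway genes that differed between grafts, the leading gene of a marker list and the nearest profiles. A further gene that the rule names is not reported here. Kdr, Elane, Mmp8, Fga, Fgb and Fgg were chosen after their values were seen. The members and the lists were chosen with earlier results of these data known. Marker and pathway lists were described by counts and medians and not tested as sets. Not found among the pathway genes were F5, F11, F13b and Proz. Alternatives were the replicate block, normexp with an offset of 50, quantile normalization, other percentiles, thresholds, probes and arrays, and leaving out each array.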

Additional observations from a re-analysis of the deposited data

Results flagged for a closer look

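Among 72 sets of 8 arrays (9 genes in 8 groups) 10 held an array far from its group, where chance flags about 1 in 20. The highest BAM-only array of 30 days was replicate 1 for Plaur (0.92, next -0.30), Thbd (2.03, next 1.17) and Tfpi2 (-2.19, next -4.09). Replicate 3 of BAM seeded with ASCs at 90 days was the lowest for Plau (-5.90, next -3.95) and Serpine2 (-3.68, next -2.60). The lowest BAM-only array of 90 days for Plaur was replicate 5 (-4.19, next -2.47). Plat was highest in replicate 5 of the seeded bladders at 180 days (2.95, next 2.10). Tfpi2 stood high in replicate 4 of the seeded bladders at 90 days (-4.93), in replicate 8 of BAM only at 90 days (-3.25) and in replicate 6 of the seeded bladders at 180 days (-2.91), of which the former pair were not well above background.

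The difference between grafts changed between neighboring days, with a test of the change itself, for 4 genes at an adjusted p under 0.05. The share of all named genes at that level in these tests is not given, so the count is not read as a result. In the F test over all days 38.3% of named genes had an adjusted p under 0.05. Over all probes the median change of the graft difference was 0.26 from 7 to 30 days, -0.31 from 30 to 90 days and 0.38 from 90 to 180 days. For Plat the difference between grafts moved by 1.06 from 7 to 30 days (SE 0.28, adjusted p = 0.0198). For F13a1 it moved by 1.15 from 30 to 90 days (SE 0.44, adjusted p = 0.0381). From 90 to 180 days it moved by -0.78 for Tfpi (SE 0.27, adjusted p = 0.0326) and by 1.39 for Tfpi2 (SE 0.49, adjusted p = 0.0339). Tfpi2 was above background on 1 of the 32 arrays behind its value. When each of the 32 arrays was left out in turn, the adjusted p stayed under 0.05 for Plat (up to 0.0464) and rose above it in 11 cases for F13a1 (up to 0.0835), 7 for Tfpi (up to 0.0751, where BAM replicate 4 of 180 days was left out and the value was -0.56) and 4 for Tfpi2 (up to 0.0792).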

How the results depend on the processing

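No gene was a DEG between grafts under the replicate block, the other background correction and normalizations, the series matrix, the filter on dim probes, the smaller fit, the analysis of variance, the mean over probes, a fold change above 2 or leave-one-out (0 to 0 at each day). With an adjusted p below 0.05 and no fold threshold the count was 1 at 7 days and 1 at 90 days. The share of all named genes there is not given, so these counts are not read as a result. An interaction at that level was found for 2 genes, beside 38.3% of all named genes. The count of 30 against 7 days with ASCs went from 2 to 1 after normexp, quantile normalization, scaling by detected probes alone, with the series matrix and with the compared arrays alone, and ranged from 1 to 2 in leave-one-out. The count of 90 against 30 days with ASCs went from 5 to 4 after normexp, quantile normalization (each with Plau and Tfpi2 lost and F13a1 gained) and the filter on dim probes. With the mean over all probes 1 gene (Tfpi) was a DEG at 180 against 90 days with ASCs.

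Reversed values belonged to differences between grafts that were not DEGs. Plau became 0.0039 (quantile) and 0.036 (detected probes) at 7 days, and -0.022 (normexp), -0.12 (quantile) and -0.052 (detected probes) at 180 days. Plaur became 0.027 (quantile), 0.035 (detected probes) and 0.096 (mean over probes) at 90 days and 0.049 (mean over probes) at 180 days. F3 became 0.025 (detected probes) at 7 and 0.033 (normexp) at 30 days, Thbd 0.028 (mean over probes) at 30 days, F13a1 0.18 (quantile) and 0.055 (detected probes) at 7 days, and Tfpi -0.046 (normexp) and -0.22 (mean over probes) at 7 days. Tfpi2 became 0.20 (normexp) at 90 days. Of 539 values over 51 gene results 506 kept direction and side of the threshold, 17 reversed, 12 lost and 4 gained a call, and the cause was not tested.

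With the replicate number as a block the counts were 0 at each of the 4 days between grafts, and 3, 2, 2, 5, 0 and 0 between days, all as without it. The numbers share no stated animal or day: the median correlation of same-numbered arrays was 0.049, 0.078, -0.020 and 0.0078 at 7, 30, 90 and 180 days, and 1, 3, 1 and 1 of 8 pairs correlated best with their own number. Filtering dim probes left no value for Tfpi2 where neither group had the probe well above background on all 8 of its arrays. Signal over background limited the values of Plau and Tfpi2 at 90 and 180 days. Leaving out markers saturated on any array, an alternative chosen after seeing the data, took the macrophage markers lower at 90 against 30 days in BAM only from 8 to 5, the fibroblast markers from 4 to 1, and the urothelial markers higher with ASCs at 7 days from 5 to 0 and at 30 against 7 days in BAM only from 4 to 0.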
